A study of Mus musculus with 12 samples.

Results

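The guanylate-binding protein (GBP) genes Gbp2, Gbp3, Gbp4, Gbp5, Gbp6 and Gbp7 and the immunity-related GTPase (IRG) genes Irgm1, Irgm2, Igtp and Iigp1 were followed in immune cells of mouse liver. The 10 genes were taken by symbol from a table of 24319 entries. All 10 were found, and all 10 passed the filter on low values that a gene needed to be tested.

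Both families are GTPases that cells make when interferon gamma binds its receptor. The receptor acts through the kinases JAK1 and JAK2, and the signal reaches a palindromic DNA element called GAS. It also raises IRF1, which binds a different element called ISRE that type I interferon uses as well. In mice, GBP and IRG proteins coat the membranes of vacuoles and microbes inside macrophages and other cells, and several GBPs help to start inflammasomes. In tissue RNA the genes are widely read as a sign that cells have received interferon.

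All mice were C57BL/6, and in all of them, controls included, genes for human c-Myc and N-ras were put into hepatocytes on day 0 by a rapid large-volume (hydrodynamic) injection. The combination group was given polyIC, which mimics viral double-stranded RNA, at 4 mg/kg intraperitoneally on days 14, 16, 18, 20 and 22, and a PD-L1 antibody at 200 µg on days 17, 19 and 21. The antiPDL1 group had the antibody with PBS in place of polyIC. The polyIC group had polyIC with IgG (200 µg) in place of the antibody, and control mice had PBS with that IgG. Euthanasia is given as day 24 in the protocol and as day 22 in the time label. Cells were captured from the liver with a PE-labelled CD45 antibody and magnetic beads, and each group has 3 libraries, numbered 0, 1 and 2. The labels do not say whether these came from separate mice, so p-values measure the spread between libraries, which may be technical in part.

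Values are FPKM, in which sequenced fragments are scaled to the length of the transcript and to the size of the library. Between libraries they also depend on what else each library holds. Small RNA genes made up 8.49% of the summed FPKM in control replicate 0 and 23.4% in combination replicate 2. Library totals ran from 476111 to 677535 FPKM, and depth is known only in relative terms, from 0.491 in antiPDL1 replicate 0 to 1 in combination replicate 2. Ptprc, which encodes CD45, was present in every library, at 381 to 487 FPKM in the combination, 268 to 340.0 with antiPDL1, 371 to 416 with polyIC and 206 to 261 in control. Hepatocyte markers were present as well, with a summed level over 15 genes of 192 to 392 FPKM in the combination, 407 to 2329 with antiPDL1, 1970 to 2688 with polyIC and 1349 to 4793 in control. In the controls, replicate 2 stood apart, with hepatocyte markers at 4793, 3538 and 1349 FPKM, Kupffer cell markers at 16667, 18794 and 4290.3 FPKM and T cell markers at 433, 672 and 1239.9 FPKM in replicates 0, 1 and 2. In such a mixture, fewer cells of a type and less RNA per cell cannot be told apart.

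The promoter windows of 5 of the genes are shown because they carry the elements through which interferon acts. Each runs from 250 bases before to 50 bases after the annotated start, 5′ to 3′ on the gene's strand, from RefSeq annotation on GRCm38.p6. Capitals mark matches to an ISRE core, searched as GAAA, any 2 bases, GAAA (or TTTC, any 2 bases, TTTC, its reverse complement), or to a GAS core, searched as TTC, any 3 bases, GAA, which is its own reverse complement. The windows lie at chr3:142620413-142620712, plus strand (Gbp2), chr3:142496684-142496983, plus strand (Gbp5), chr11:48871371-48871670, minus strand (Irgm1), chr11:58214727-58215026, plus strand (Irgm2) and chr11:58199306-58199605, plus strand (Igtp).
Gbp2: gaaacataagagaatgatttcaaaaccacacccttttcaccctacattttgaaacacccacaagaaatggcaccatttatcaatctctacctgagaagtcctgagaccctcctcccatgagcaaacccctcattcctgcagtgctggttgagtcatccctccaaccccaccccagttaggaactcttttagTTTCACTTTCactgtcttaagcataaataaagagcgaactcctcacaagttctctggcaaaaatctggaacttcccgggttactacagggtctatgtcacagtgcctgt
Gbp5: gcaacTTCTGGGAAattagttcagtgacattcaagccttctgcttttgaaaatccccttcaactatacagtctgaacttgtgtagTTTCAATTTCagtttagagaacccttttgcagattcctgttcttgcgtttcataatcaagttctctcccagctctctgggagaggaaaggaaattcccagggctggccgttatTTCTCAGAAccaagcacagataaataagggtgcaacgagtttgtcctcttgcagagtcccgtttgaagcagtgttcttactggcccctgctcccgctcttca
Irgm1: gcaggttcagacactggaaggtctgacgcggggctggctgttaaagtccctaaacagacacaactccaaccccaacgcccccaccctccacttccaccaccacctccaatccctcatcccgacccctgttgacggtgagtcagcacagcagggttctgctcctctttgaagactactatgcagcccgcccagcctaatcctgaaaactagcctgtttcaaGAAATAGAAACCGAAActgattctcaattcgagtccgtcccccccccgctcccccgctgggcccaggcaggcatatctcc
Irgm2: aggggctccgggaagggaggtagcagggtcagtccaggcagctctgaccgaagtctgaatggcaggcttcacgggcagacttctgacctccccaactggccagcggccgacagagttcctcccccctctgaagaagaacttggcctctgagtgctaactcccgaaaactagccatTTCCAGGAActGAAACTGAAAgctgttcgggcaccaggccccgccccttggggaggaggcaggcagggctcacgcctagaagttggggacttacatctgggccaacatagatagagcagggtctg
Igtp: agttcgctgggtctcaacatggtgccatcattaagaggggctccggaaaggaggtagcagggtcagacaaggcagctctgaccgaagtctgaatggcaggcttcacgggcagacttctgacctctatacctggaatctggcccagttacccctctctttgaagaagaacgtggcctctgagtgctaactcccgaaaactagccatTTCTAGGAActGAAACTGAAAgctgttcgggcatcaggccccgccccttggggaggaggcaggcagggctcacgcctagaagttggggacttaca

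RefSeq windows were matched for 7 of the 10 genes, as 8 windows, because Gbp3 has 2. An ISRE core was found in 7 of these 8 windows and a GAS core in 4, while 3.44% and 8.3% of all 32851 windows of the same length hold them. The Irgm1 window holds ISRE matches that start at -30 and -24 and share letters, and Gbp3 has the same kind of overlap at -45 and -39. Igtp and Irgm2 lie near each other on chromosome 11, and their windows share a run of 61 identical bases. In both, the GAS core stands just before the ISRE core, at -45 and -34 in Igtp and at -75 and -64 in Irgm2. Gbp2 holds an ISRE core at -59 and no GAS core in this window. Gbp7 holds an ISRE core at -53 and GAS cores at -106 and -87. A match is a description of the letters and does not show that a factor binds there.

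**Figure D1:**
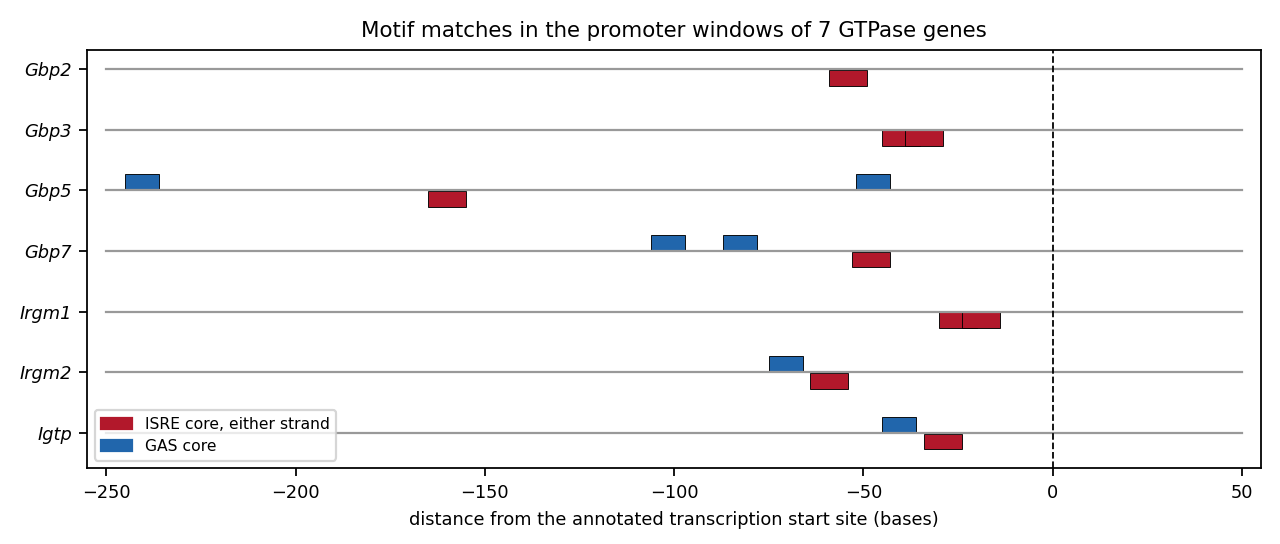
Positions of ISRE cores (red, below the line) and GAS cores (blue, above the line) in the promoter windows of 7 GTPase genes, in bases from the annotated start (dashed), with the first of the 2 windows drawn for Gbp3. Each of the 7 windows drawn holds an ISRE core, between -165 in Gbp5 and -24 in Irgm1, and 4 hold a GAS core.

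The order of the transcript levels was much the same in each group. Gbp2 had the highest mean, 362 ± 47.0 FPKM in the combination, 331 ± 216 with antiPDL1, 95.9 ± 20.3 with polyIC and 77.1 ± 22.7 in control (SD, n = 3 each). Irgm1 was next in each group, at 149 ± 16.9 FPKM in the combination, 159 ± 87.6 FPKM with antiPDL1, 72.4 ± 7.16 FPKM with polyIC and 64.1 ± 7.33 FPKM in control. Gbp6 was the lowest, at 15.3 ± 0.651 FPKM in the combination, 12.6 ± 6.57 FPKM with antiPDL1, 9.22 ± 0.675 FPKM with polyIC and 4.00 ± 0.354 FPKM in control. In the combination, Gbp2 stood above Irgm1 with no overlap between libraries, whereas Irgm1, Iigp1 (146 ± 25.6) and Igtp (142 ± 11.3) overlapped. With antiPDL1 each gene from Gbp2 down to Gbp7 overlapped with its neighbour in the order, and the 3 libraries were far apart. The summed level of the 10 genes was 1132 ± 81.4 FPKM in the combination, 1060.1 ± 607 with antiPDL1, 463 ± 75.0 with polyIC and 375 ± 39.8 in control.

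**Figure D2:**
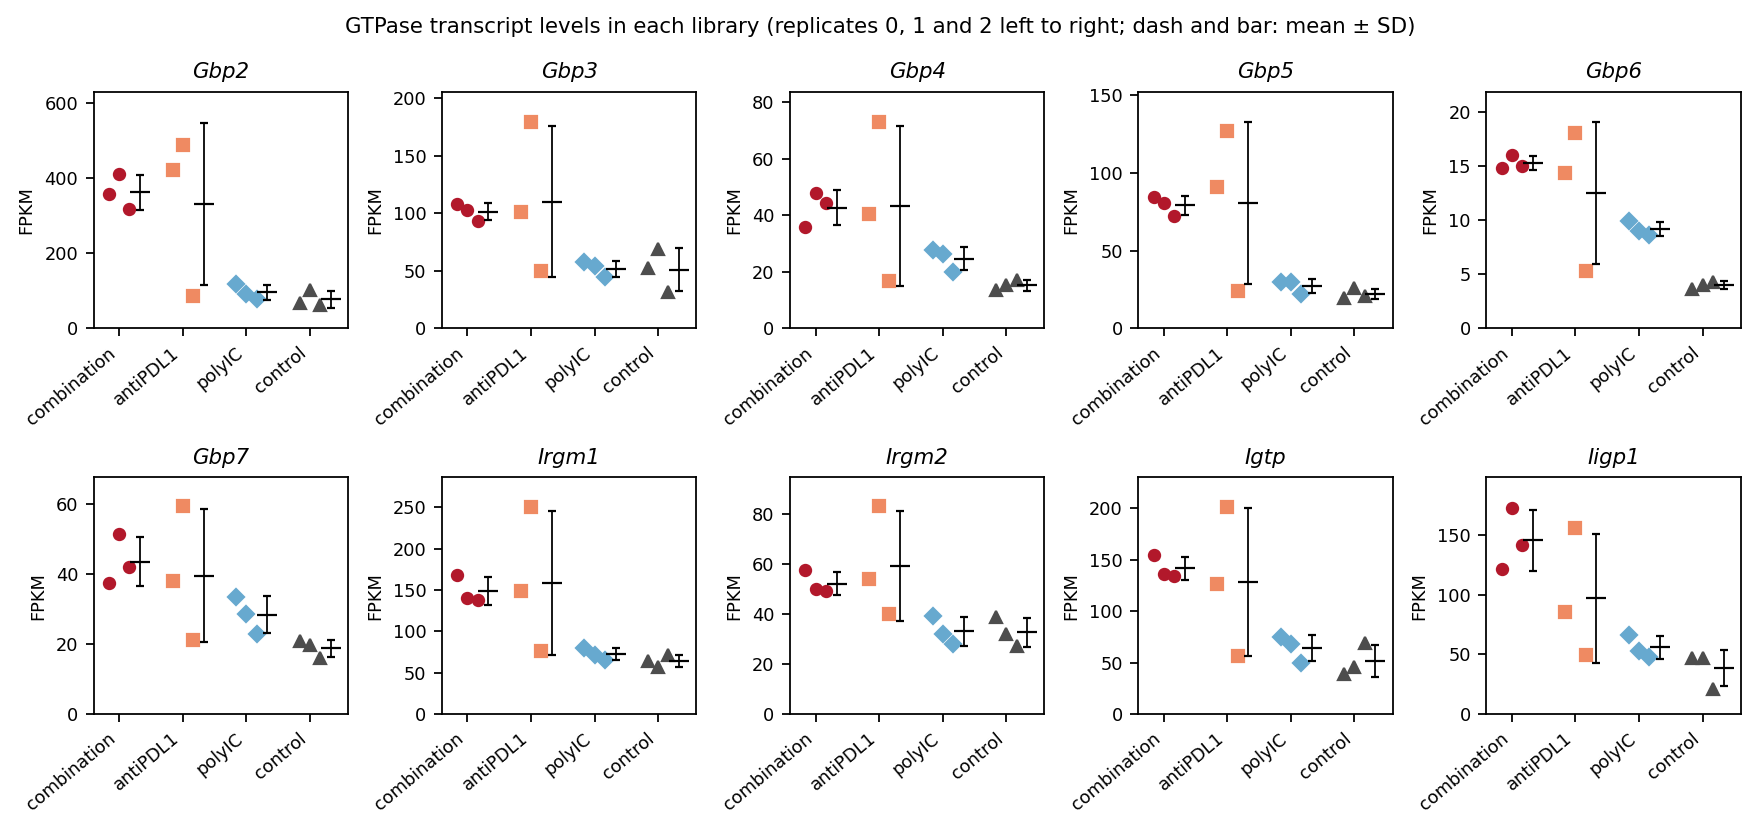
FPKM of each GTPase gene in each library, with replicates 0, 1 and 2 from left to right in each group and the mean ± SD beside them. In every panel antiPDL1 replicate 2 (the rightmost square) lies below the other antiPDL1 libraries, and the combination libraries lie above those of polyIC and control.

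Mice given both agents were set against controls first. Of the 10 genes, 8 rose and 0 fell in limma, at a Benjamini-Hochberg adjusted p under 0.05 over 11990 genes. The genes that missed the threshold were Gbp3 and Irgm2. Over all genes tested, 13.1% were called higher. The median log2 change of the 10 genes was 1.45, against 0.05 over all genes, and log2 changes here are on the scale of log2(FPKM + 1), which understates changes of low genes. In 10 of 10 every combination library lay above every control library, a pattern found in 25.6% of all genes.

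Among the GBPs, Gbp2, which in mice is recruited to parasite vacuoles, had 357, 411 and 317 FPKM in the combination and 66.6, 103 and 61.6 FPKM in control. The highest control library was thus well under the lowest combination library. Its log2 change was 2.25 ± 0.52 (SE), the largest of the 10, with adjusted p = 0.0104 in limma. Gbp5, known in mouse macrophages for promoting assembly of the NLRP3 inflammasome, had 84.3, 80.6 and 71.9 FPKM in the combination and 19.8, 25.9 and 20.7 FPKM in control. Its groups were as tight as they were separate, and it rose by 1.79 ± 0.45 (limma adjusted p = 0.0146). Gbp6 had 14.8, 16.0 and 15.0 FPKM in the combination and 3.63, 4.03 and 4.34 FPKM in control. It rose by 1.71 ± 0.31 with the smallest adjusted p of the 10 genes, 0.00431 in limma. Gbp6 and Gbp10 are closely similar genes on the same chromosome, and how the authors divided their reads is not given in the sources used here.

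Gbp4 had 35.9, 47.8 and 44.5 FPKM in the combination and 13.4, 15.2 and 17.2 FPKM in control, and rose by 1.42 ± 0.39 (limma adjusted p = 0.0212). Gbp7, which in mouse macrophages takes part in assembling the phagocyte oxidase, had 37.3, 51.3 and 42.0 FPKM in the combination and 20.7, 19.6 and 15.9 FPKM in control. It rose by 1.17 ± 0.30 (limma adjusted p = 0.0163). Gbp3 had 108, 103 and 93.3 FPKM in the combination and 52.5, 69.1 and 31.8 FPKM in control. The control libraries of Gbp3 differed more among themselves than those of Gbp5 or Gbp6. Its log2 change of 1.04 ± 0.39 had adjusted p = 0.0676 in limma, where the groups share 1 estimate of spread. Gbp4 had the same SE, 0.39, and a larger change.

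The IRG genes divide into regulators and an effector. The IRGM proteins Irgm1, Irgm2 and Igtp (also called Irgm3) hold the effector IRGs inactive on the cell's own membranes. Irgm1 had 169, 141 and 138 FPKM in the combination and 64.4, 56.6 and 71.3 FPKM in control, a rise of 1.21 ± 0.33 (limma adjusted p = 0.0195). Igtp had 155, 137 and 134 FPKM in the combination and 39.4, 45.7 and 68.7 FPKM in control, a rise of 1.49 ± 0.38 (adjusted p = 0.0152). The smallest change of the 10 belonged to Irgm2, with 57.3, 49.7 and 49.0 FPKM in the combination and 38.7, 31.9 and 27.3 FPKM in control. Its groups did not overlap, and its log2 change of 0.67 ± 0.24 had adjusted p = 0.0603 in limma. Iigp1, also called Irga6, is an effector that loads onto parasite vacuoles and disrupts them. It had 122, 173 and 142 FPKM in the combination and 47.2, 47.2 and 21.3 FPKM in control, a rise of 1.96 ± 0.39 (adjusted p = 0.00582).

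The calls did not all rest equally on the libraries. With each of the 12 libraries left out in turn, Gbp2, Gbp6 and Iigp1 were called in 12 of 12 runs, Gbp7 and Igtp in 11, Gbp5 in 10, and Gbp4 and Irgm1 in 8. Gbp3 and Irgm2 were called in 2 of 12. The count of called genes was 4 without combination replicate 1, with 5.17% of all genes called higher, and 4 without control replicate 0, with 5.8%. It was 10 with array quality weights (31.1% of all genes), with median-of-ratios rescaling (14.5%), with a fit of only the 2 groups (13.8%), or with antiPDL1 replicate 1 (12.8%) or 2 (19.9%) left out. Without control replicate 2 it was 8.

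**Figure D3:**
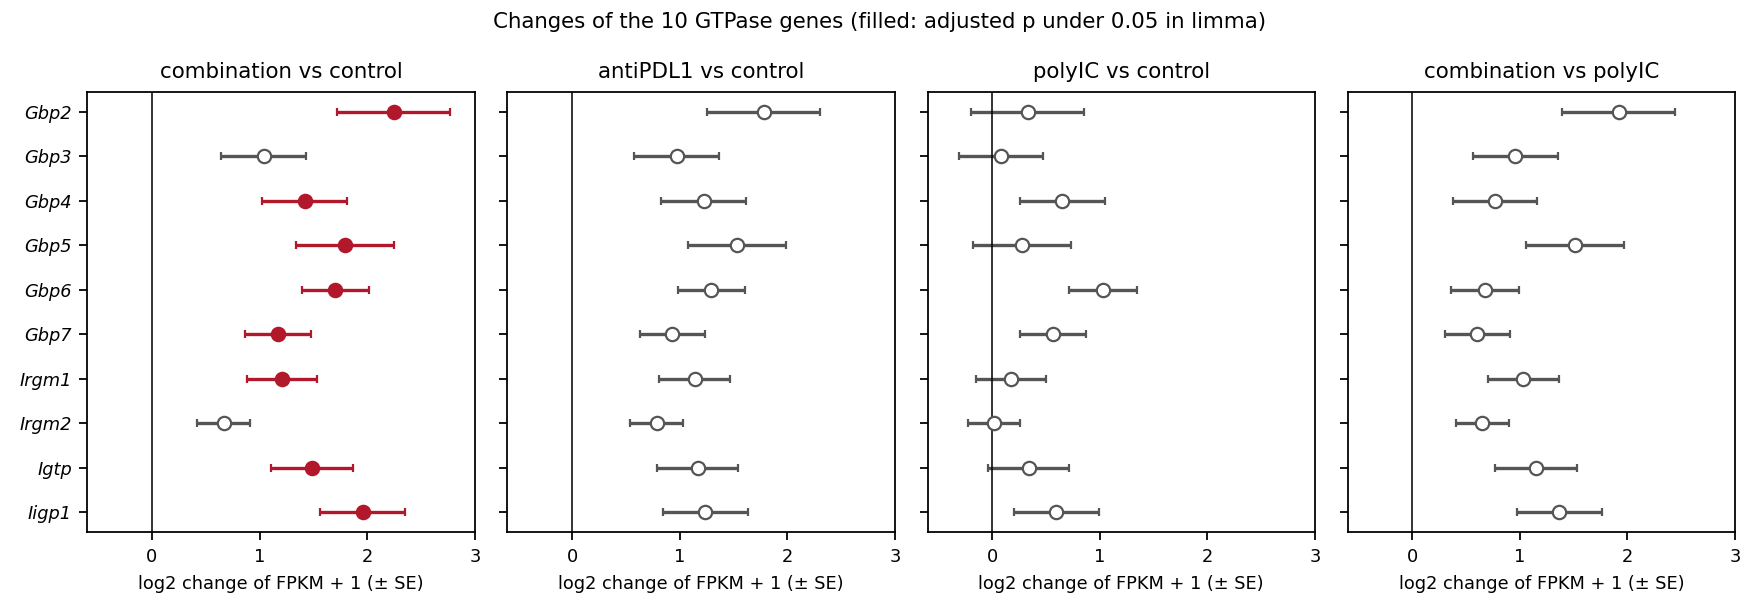
Change of each GTPase gene on the log2(FPKM + 1) scale with its standard error, in combination against control, antiPDL1 against control, polyIC against control and combination against polyIC, filled where limma's adjusted p was under 0.05. The 8 filled points are all in combination against control, where changes run from 0.67 to 2.25, and in polyIC against control 9 of 10 points lie under 1.

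What PD-L1 blockade did in the absence of polyIC was read from antiPDL1 against control. All 10 log2 changes were positive, with a median of 1.19 against 0.01 over all genes, yet 0 of 10 were called in limma, where 0 of all 11990 genes were called higher and 0.209% were called in either direction. Changes ran from 0.79 ± 0.24 for Irgm2 to 1.78 ± 0.52 for Gbp2, with adjusted p from 0.150 to 0.264. At an unadjusted p under 0.05, 10 of 10 passed, against 7.62% of all genes that passed and were higher. Groups did not overlap for 5 of 10 (Gbp6, Gbp7, Irgm1, Irgm2 and Iigp1), against 4.61% of all genes.

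Within the antiPDL1 group 1 library stood apart from the other two. Gbp2 had 421 and 488 FPKM in replicates 0 and 1 and 85.7 FPKM in replicate 2, against 66.6, 103 and 61.6 FPKM in control. Gbp5 had 91.0 and 126 FPKM in replicates 0 and 1 and 24.3 FPKM in replicate 2, against 19.8, 25.9 and 20.7 FPKM in control. Replicate 2 was the lowest antiPDL1 library for 10 of 10 genes, and it lay within the control range for 5 of them (Gbp2, Gbp3, Gbp4, Gbp5 and Igtp). Replicate 1 was above every control and every polyIC library for 10 of 10 genes and was the highest of all 12 libraries for 9. Iigp1 was the exception, with its highest value in combination replicate 1. Replicate 0 was also above every control and every polyIC library for 10 of 10.

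Igtp had 127, 201 and 56.7 FPKM in antiPDL1 replicates 0, 1 and 2, against 39.4, 45.7 and 68.7 FPKM in control. Gbp3 had 101, 179 and 49.6 FPKM in these antiPDL1 libraries, against 52.5, 69.1 and 31.8 FPKM in control. Gbp4 had 40.5, 73.1 and 16.7 FPKM with antiPDL1, against 13.4, 15.2 and 17.2 FPKM in control. For these genes replicate 2 was inside the control range while both other libraries were above it. For the other 5 genes replicate 2 was above every control, though close to the highest. Irgm1 had 149, 251 and 76.3 FPKM with antiPDL1, where the highest control had 71.3 FPKM. Irgm2 had 53.9, 83.1 and 40.1 FPKM with antiPDL1, where the highest control had 38.7 FPKM. Iigp1 had 85.3, 156 and 49.2 FPKM with antiPDL1, where the highest control had 47.2 FPKM. The same held for the GBP genes of this set. Gbp6 had 14.4, 18.1 and 5.29 FPKM with antiPDL1, against 4.34 FPKM in the highest control. Gbp7 had 38.0, 59.2 and 21.2 FPKM with antiPDL1, against 20.7 FPKM in the highest control.

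Without antiPDL1 replicate 2, limma called 10 of 10 genes higher in antiPDL1 than in control, with log2 changes from 1.03 for Irgm2 to 2.58 for Gbp2 and adjusted p from 0.000588 for Gbp6 to 0.0152 for Iigp1. In that fit 11.9% of all genes were called higher. Without replicate 0 or replicate 1, 0 of 10 were called. Array quality weights also called 10, with 10.2% of all genes called higher. The lowest weights were 0.209 for antiPDL1 replicate 2 and 0.264 for control replicate 2, and the highest was 6.36 for combination replicate 1. The same library was low in monocyte markers, whose summed level over 8 genes was 6316, 7143 and 1652 FPKM in antiPDL1 replicates 0, 1 and 2, against 1370.2 to 2153 FPKM in control. Kupffer cell markers summed over 11 genes were at 3619, 8678 and 12201 FPKM in these libraries, against 4290.3 to 18794 FPKM in control, and hepatocyte markers at 949, 407 and 2329 FPKM. The part of these cell types in the GTPase levels was not tested.

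**Figure D4:**
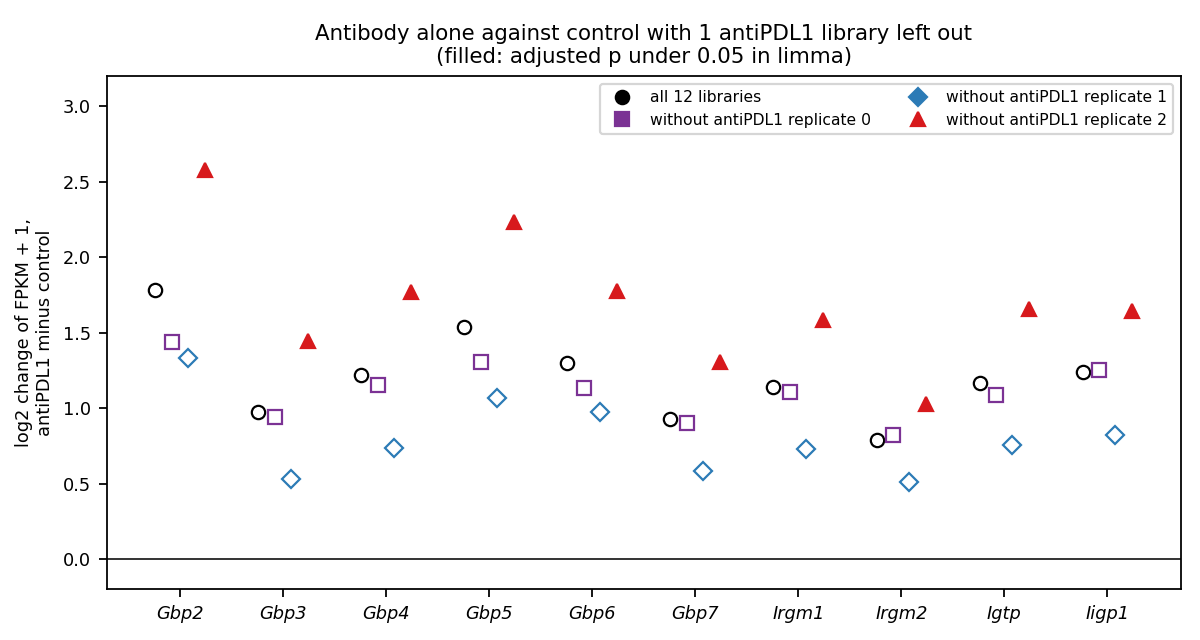
Log2 change of each GTPase gene in antiPDL1 against control with all 12 libraries and with each antiPDL1 library left out, filled where limma's adjusted p was under 0.05. Filled points appear only without antiPDL1 replicate 2, at 1.03 for Irgm2 to 2.58 for Gbp2.

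What the double-stranded RNA did by itself was read from polyIC against control. Of the 10 GTPase genes 0 were called in limma, where 2.47% of all genes were called higher. The median log2 change was 0.33, against -0.01 over all genes, with adjusted p from 0.0907 for Gbp6 to 0.980 for Irgm2, and 1 of 10 passed at an unadjusted p under 0.05 (11% of all genes passed and were higher). Gbp6 had 9.96, 9.05 and 8.65 FPKM with polyIC and 3.63, 4.03 and 4.34 FPKM in control, so its groups were far apart, at a log2 change of 1.03 ± 0.31. It was called in limma without antiPDL1 replicate 2 (adjusted p = 0.00184), a library that enters this contrast through the shared spread alone. In that fit 5.2% of all genes were called higher.

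Groups also did not overlap for Gbp4, Gbp7 and Iigp1, against 16.2% of all genes. Gbp4 had 27.9, 26.2 and 20.1 FPKM with polyIC and 13.4, 15.2 and 17.2 FPKM in control. Gbp7 had 33.5, 28.6 and 22.9 FPKM with polyIC and 20.7, 19.6 and 15.9 FPKM in control. Iigp1 had 66.4, 53.2 and 47.9 FPKM with polyIC and 47.2, 47.2 and 21.3 FPKM in control, where the lowest polyIC value was close to the highest control. Their log2 changes of 0.65 ± 0.39, 0.56 ± 0.30 and 0.59 ± 0.39 did not pass, and that of Iigp1 was 0.22 without control replicate 2.

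The other 6 genes overlapped with control. Gbp2 had 118, 91.9 and 77.9 FPKM with polyIC, against 66.6, 103 and 61.6 FPKM in control, at a log2 change of 0.33 ± 0.52. Gbp5 had 30.0, 29.7 and 21.9 FPKM with polyIC, against 19.8, 25.9 and 20.7 FPKM in control. In both genes replicate 0 of polyIC was above every control and replicate 2 was not. Gbp3 had 57.9, 53.8 and 44.2 FPKM with polyIC, against 52.5, 69.1 and 31.8 FPKM in control. Irgm1 had 80.0, 71.4 and 65.8 FPKM with polyIC, against 64.4, 56.6 and 71.3 FPKM in control. Igtp had 74.6, 67.7 and 50.1 FPKM with polyIC, against 39.4, 45.7 and 68.7 FPKM in control. In these genes too the ranges of the groups crossed. Irgm2 had 39.3, 31.8 and 28.0 FPKM with polyIC and 38.7, 31.9 and 27.3 FPKM in control, nearly the same values, at a log2 change of 0.02 ± 0.24. The direction of the changes of Gbp3 (0.08 ± 0.39) and Irgm2 turned negative when libraries were rescaled to a common total without small RNA genes, at -0.07 and -0.14.

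Adding the antibody to polyIC was examined in the combination against polyIC. In 10 of 10 genes each combination library lay above each polyIC library, a pattern found in 13.3% of all genes, and the median log2 change was 0.99 against 0.06 over all genes. In limma 0 of 10 were called (0.167% of all genes were called higher), with adjusted p from 0.104 for Gbp2 to 0.438 for Gbp4, and 7 of 10 passed at an unadjusted p under 0.05, against 4.3% of all genes that passed and were higher. Changes ran from 0.61 ± 0.30 for Gbp7 to 1.92 ± 0.52 for Gbp2, with Gbp5 at 1.51 ± 0.45, Iigp1 at 1.37 ± 0.39 and Igtp at 1.15 ± 0.38. A fit of only these 2 groups called 9 of 10, with 2.66% of all genes called higher. Array quality weights called 10 (15.6% of all genes), and the fit without antiPDL1 replicate 2 called 6 (1.13% of all genes).

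Adding polyIC to the antibody gave no such separation. In the combination against antiPDL1 0 of 10 genes were called (0.1% of all genes were called higher) and 0 of 10 groups were separate, against 8.28% of all genes. The median log2 change was 0.25 against 0.04 over all genes, from -0.12 ± 0.24 for Irgm2 to 0.72 ± 0.39 for Iigp1, and 0 of 10 passed at an unadjusted p under 0.05, against 6.31% of all genes that passed and were higher. Without antiPDL1 replicate 2, 9 of the 10 changes were negative, down to -0.44 for Gbp5, and Iigp1 was the exception. Compared directly, antiPDL1 was above polyIC at a median of 0.80 with 0 of 10 called (0.025% of all genes were called higher), 5 of 10 at an unadjusted p under 0.05 (4.1% of all genes passed and were higher), and 1 group without overlap (Irgm2, against 7.1% of all genes). Without antiPDL1 replicate 2, limma called 8 of 10, with 1.74% of all genes called higher. The library left out was the lowest of the antiPDL1 group for 10 of 10 genes.

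The interaction asks whether polyIC moved the genes differently with and without the antibody. Its median was -0.06 over the 10 genes, from -0.62 ± 0.45 for Gbp6 to 0.14 ± 0.74 for Gbp2, and 0 of 10 were called (0.025% of all genes were called), at adjusted p = 0.999 each in limma, with 0 of 10 at an unadjusted p under 0.05 (2.44% of all genes). Standard errors ran from 0.35 for Irgm2 to 0.74 for Gbp2. With single libraries left out the value changed sign in 9 of 10 genes, all but Gbp6.

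The 10 genes varied together across libraries. Pearson's r of log2(FPKM + 1) between pairs of the genes ran from 0.742 for Gbp6 and Irgm2 to 0.991 for Gbp2 and Gbp5 over the 12 libraries, with a median of 0.905 over 45 pairs. With group means removed, r ran from 0.457 for Igtp and Iigp1 to 0.974 for Gbp2 and Gbp5, with a median of 0.867. These values rest mostly on the antiPDL1 libraries. The summed level of the 10 genes had an SD of 607 FPKM there, against 39.8 to 81.4 FPKM in the other groups. No value for pairs over all genes was set beside them. All pairs share the same libraries. Gbp2 had the largest and Irgm2 the smallest change in the combination against control. Within a library, Gbp2 exceeded Irgm2 by a mean of 2.77 log2 units in the combination, 2.19 with antiPDL1, 1.503 with polyIC and 1.19 in control. The pair was picked for its changes, so these values are a description with no test.

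Ifng, the gene of interferon gamma itself, is made mainly by T cells and NK cells. It had 82.6, 151 and 135 FPKM in the combination, 37.8, 37.2 and 19.1 FPKM with antiPDL1, 35.2, 34.8 and 21.6 FPKM with polyIC, and 8.52, 13.6 and 16.8 FPKM in control. The combination libraries stood above all others and each single treatment above control. In limma it rose by 3.15 ± 0.34 in the combination against control (adjusted p = 0.000768) and by 1.96 ± 0.34 in the combination against polyIC (adjusted p = 0.0374). In the combination against antiPDL1 its change of 1.95 ± 0.34 had adjusted p = 0.0580. Its changes of 1.20 ± 0.34 with antiPDL1 and 1.19 ± 0.34 with polyIC against control had adjusted p = 0.186 and 0.0778.

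Set side by side, the GTPase genes and Ifng did not keep 1 ratio. In antiPDL1 replicates 0 and 1, Ifng was at 37.8 and 37.2 FPKM with Gbp2 at 421 and 488 FPKM. At nearly the same Ifng, 35.2 and 34.8 FPKM, polyIC replicates 0 and 1 had Gbp2 at 118 and 91.9 FPKM. Summed markers of NK cells, a source of Ifng, were at 176 and 295 FPKM in these antiPDL1 libraries and 502 and 841 FPKM in these polyIC libraries, and their part was not tested. The combination, with Ifng at 82.6 FPKM or more, had Gbp2 at 317 to 411 FPKM. The summed FPKM of the 10 genes for each FPKM of Ifng was 13.8, 8.001 and 7.75 in the combination, 29.6, 43.9 and 22.3 with antiPDL1, 15.3, 13.3 and 18.0 with polyIC, and 43.0, 30.7 and 20.3 in control. The antiPDL1 and control libraries thus had more GTPase RNA for each unit of Ifng than the combination and polyIC libraries, with no overlap between these pairs of groups.

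**Figure D5:**
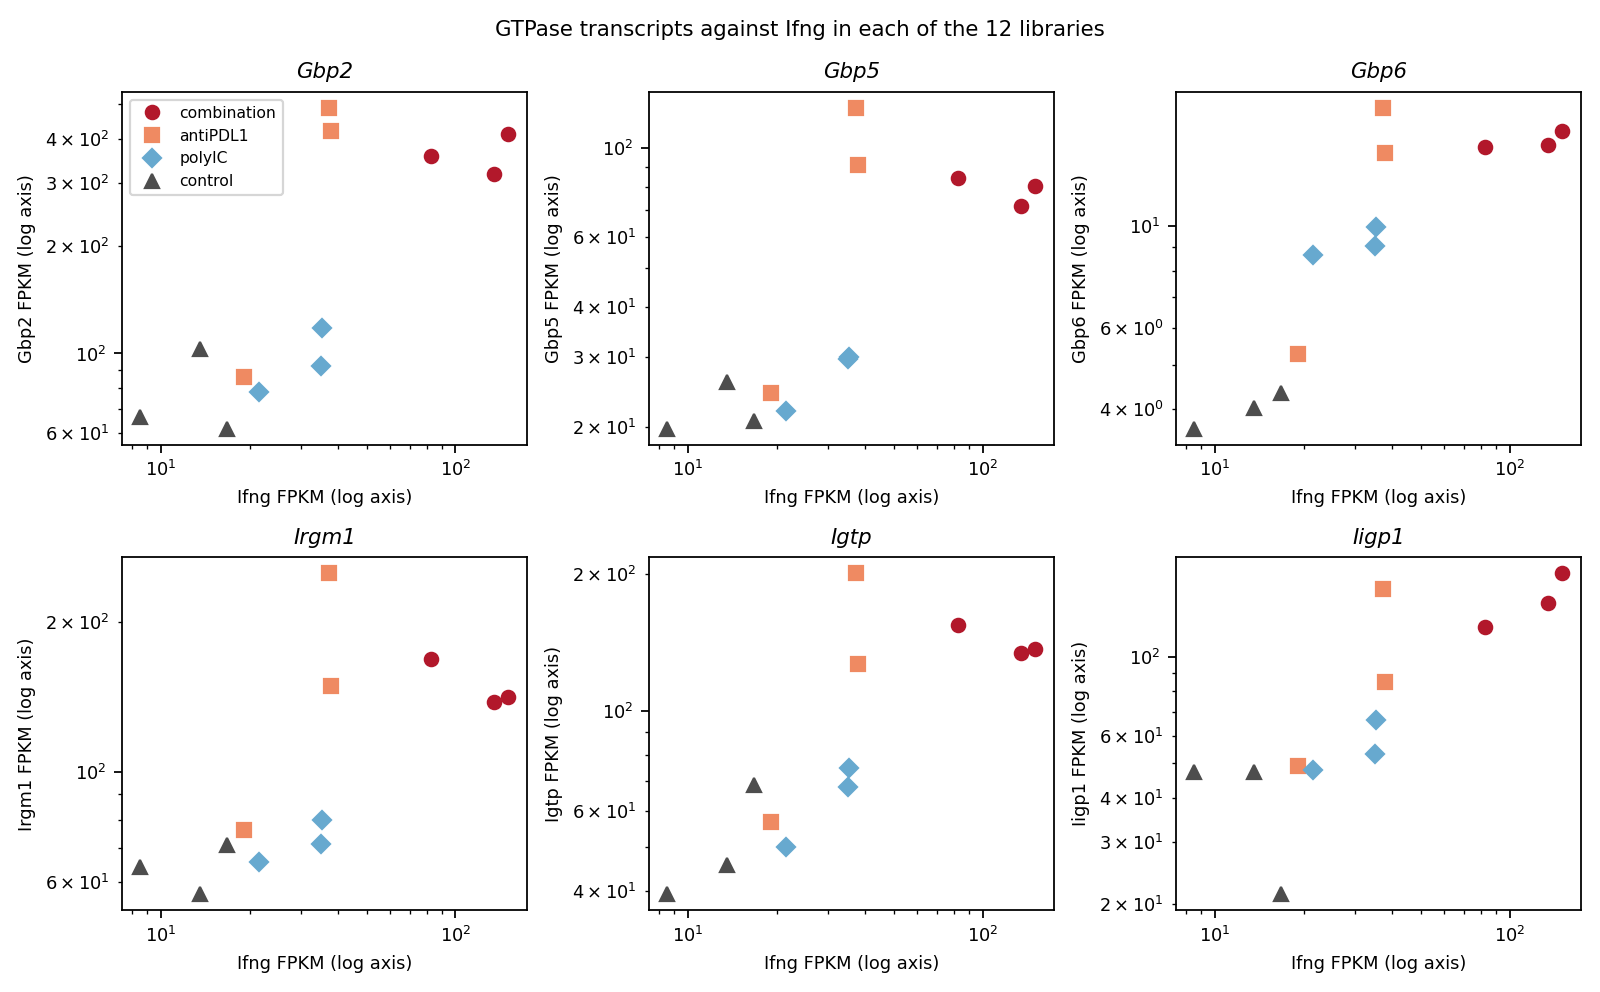
FPKM of 6 GTPase genes against FPKM of Ifng in each of the 12 libraries, both on log axes. Replicates 0 and 1 of antiPDL1 and of polyIC lie at nearly the same Ifng (34.8 to 37.8 FPKM), with the antiPDL1 libraries higher in each panel, and the combination libraries lie farthest right at GTPase levels close to these antiPDL1 libraries.

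Over the 12 libraries, r with Ifng ran from 0.526 for Irgm2 to 0.852 for Gbp6, and Spearman's rho from 0.692 to 0.930. By a permutation test with 100000 resamples, adjusted over 11989 genes, 8 of 10 passed by r (Gbp3 at adjusted p = 0.0880 and Irgm2 at 0.147 did not) and 10 of 10 by rho. Of all genes, 38.3% passed by r and 40.7% by rho. Without the 2 libraries farthest from the median of Ifng, combination replicate 1 and control replicate 0, r was 0.567 to 0.806. Because the combination libraries stood apart in Ifng, r was also taken over the 9 other libraries, where it ran from 0.466 to 0.906 with 1 of 10 passing by r (Gbp6, adjusted p = 0.0417) and 5 by rho, against 9.74% and 7.49% of all genes. Without antiPDL1 replicate 0 and control replicate 0, the 2 of the 9 farthest from the median, it was 0.494 to 0.897.

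Pooled over the groups with group means removed, the link to Ifng was positive but not called. Here r ran from 0.224 for Irgm2 to 0.757 for Gbp4, with a median of 0.616 against 0.211 over all genes. The antiPDL1 libraries lay farthest apart, at summed GTPase levels of 1120, 1635 and 425 FPKM with Ifng at 37.8, 37.2 and 19.1 FPKM. In polyIC too, replicate 2 was lowest in both. In control, replicate 2 had the highest Ifng, 16.8 FPKM, and the lowest summed level, 340 FPKM. A link in each group was thus not shown. A limma fit with group and Ifng as terms called 0 of 10 genes and 0 of all 11989, with adjusted p from 0.106 for Gbp4 to 0.714 for Irgm2. At an unadjusted p under 0.05, 5 of 10 passed (Gbp2, Gbp4, Gbp5, Gbp6 and Igtp), against 16.5% of all genes that passed and were positive.

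The receptor and its signalling chain were given by a list of 10 genes. In the combination against control 4 rose and 0 fell, where 13.1% of all genes were called higher. They were led by Ifng and by Socs3 (1.98 ± 0.45), an inhibitor of cytokine signalling. The receptor chains did not rise: Ifngr1 was at 206 ± 10.5 FPKM in the combination and 262 ± 64.9 in control (log2 change -0.31, adjusted p = 0.235), and Ifngr2 at 43.4 ± 2.44 FPKM in the combination and 56.2 ± 6.61 FPKM in control (log2 change -0.36, adjusted p = 0.0932). Socs1, the feedback inhibitor of this receptor, had 28.6, 25.5 and 17.4 FPKM in the combination and 8.92, 9.48 and 12.5 FPKM in control (log2 change 1.12 ± 0.52, adjusted p = 0.123).

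Of 10 response factors 4 rose and 0 fell in the combination against control, where 13.1% of all genes were called higher. They were led by Batf2 (1.71 ± 0.50), Irf1 (1.08 ± 0.37, limma adjusted p = 0.0493) and Nlrc5 (0.79 ± 0.25), the transactivator of MHC class I genes. Irf1 had 226, 263 and 263 FPKM in the combination, 232, 360 and 112 FPKM with antiPDL1, 145, 150.0 and 78.3 FPKM with polyIC, and 113, 140.3 and 103 FPKM in control. Among 22 tested target genes outside the GTPases 7 rose and 0 fell, at a median of 0.90, with the chemokine gene Cxcl9 at 2.17 ± 0.52, Upp1 at 2.17 ± 0.63 and Cxcl10 at 1.93 ± 0.55. With antiPDL1 against control 0 genes of the chain, of the factors and of the targets were called, at list medians of 0.28, 0.22 and 0.77. With polyIC against control 0 were called, at list medians of 0.05, -0.13 and 0.09. Of all 11990 genes, 0 were called higher with antiPDL1 and 2.47% with polyIC.

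Of 13 tested genes for the cells and cytokines that induce Ifng, 3 rose and 2 fell in the combination against control. Of all genes 13.1% were called higher and 16.3% lower, so the share of falls was near that of all genes. Eomes, a transcription factor of cytotoxic lymphocytes, rose by 2.79 ± 0.38, and the receptor genes Il12rb1 and Il15ra rose by 1.64 ± 0.36 and 1.55 ± 0.35. With polyIC alone Eomes rose by 1.97 ± 0.38 (adjusted p = 0.0198) and Il12b, a subunit of interleukin 12, fell by 1.49 ± 0.31 (adjusted p = 0.0297), where 1.18% of all genes were called lower. Il12b also fell by 1.495 ± 0.31 in the combination (adjusted p = 0.00692). Of 12 ligand genes of type I and III interferons, Ifnb1 was above 0 in 9 of the 12 libraries, at 0.170 FPKM at most. The others were listed at 0 in 10 or more of the 12 libraries and reached 0.0600 FPKM at most. Of their receptor chains, Ifnar2 fell in the combination to 84.8 FPKM against 148 FPKM in control (log2 change -0.78 ± 0.21, adjusted p = 0.0176).

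Other genes of the 2 families followed the combination in part. Of 23 named relatives 19 were in the table and 14 were tested. In the combination against control 7 rose and 0 fell, at a median of 0.75, where 13.1% of all genes were called higher. The largest rises were Gm4841 (2.40 ± 0.21), a predicted IRG gene, Ifi47 (1.60 ± 0.36), which encodes Irgd, and Gm12250 (1.53 ± 0.34), which encodes Irgb10. Ifi47 had a higher level than any of the 10 genes, with 401, 471 and 430 FPKM in the combination, 530.3, 529 and 187 FPKM with antiPDL1, 274, 207 and 214 FPKM with polyIC, and 116, 133 and 187 FPKM in control. It repeats the pattern of 1 low antiPDL1 library.

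Gm4841 behaved differently. It had 4.24, 6.52 and 5.27 FPKM in the combination, 1.81, 1.80 and 0.746 FPKM with antiPDL1, 2.31, 2.39 and 1.76 FPKM with polyIC, and 0.173, 0.210 and 0.179 FPKM in control. The combination was above both single treatments, and limma called it in the combination against polyIC (1.00 ± 0.21, adjusted p = 0.0443), in the combination against antiPDL1 (1.39 ± 0.21, adjusted p = 0.0360) and in polyIC against control (1.40 ± 0.21, adjusted p = 0.00830). Gbp10 was called with polyIC too (1.38 ± 0.30, adjusted p = 0.0344), with 3.45, 3.43 and 2.69 FPKM with polyIC against 0.420, 0.522 and 0.892 FPKM in control. In the combination it had 1.86, 1.96 and 2.26 FPKM, below every polyIC library. These 2 were the only relatives called with polyIC, where 2.47% of all genes were called higher. With antiPDL1 against control 0 of 14 were called, where 0 of all 11990 genes were called higher. Reads of Gbp10 may be shared with Gbp6.

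Of the 7 relatives not called in the combination against control, Gbp2b, a close relative of Gbp2, had the lowest log2 change, -0.78 ± 0.73. It had 37.0, 13.6 and 31.3 FPKM in the combination, 37.7, 278 and 72.3 FPKM with antiPDL1, 32.6, 32.2 and 25.7 FPKM with polyIC, and 66.1, 85.0 and 14.7 FPKM in control. It was chosen for mention after its values were seen, and a single library, antiPDL1 replicate 1, holds its highest level.

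Among the genes whose levels were most like the mean of the 10, by r over the 12 libraries among 11250 candidates, were Pnp (0.982), Zbp1 (0.980), Rars (0.976), Rbmxl1 (0.968), Magohb (0.967), Tgtp2 (0.966), Tap1 (0.964), Psmb10 (0.961) and Fam26f (0.961). Tgtp2 is an IRG gene with a near-identical copy, Tgtp1. Pnp encodes purine nucleoside phosphorylase, Zbp1 a sensor of Z-form nucleic acid, Tap1 a peptide transporter for MHC class I, and Psmb10 a subunit of the immunoproteasome. Zbp1 had 197, 277 and 243 FPKM in the combination, 293, 418 and 71.1 FPKM with antiPDL1, 116, 113 and 71.7 FPKM with polyIC, and 71.1, 91.3 and 59.6 FPKM in control. Its low antiPDL1 replicate 2 and its polyIC libraries near control follow from the choice of genes by their likeness over these libraries.

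Cell type markers moved with the groups as well. In the combination against control, T cell markers rose in 13 of 13 and monocyte markers in 5 of 8. Neutrophil markers rose in 3 of 8 and NK cell markers in 2 of 8. Kupffer cell markers fell in 9 of 11, B cell markers in 8 of 8 and hepatocyte markers in 14 of 15. Sinusoidal endothelial cell markers fell in 9 of 9 and dendritic cell markers in 4 of 8. Of all genes 13.1% were called higher and 16.3% lower. Summed T cell markers were at 2841 to 3586 FPKM in the combination, 919 to 2294 with antiPDL1, 1862 to 2583 with polyIC and 433 to 1239.9 in control. Summed monocyte markers were at 3931 to 6285 FPKM in the combination, 1652 to 7143 with antiPDL1, 2858 to 3452 with polyIC and 1370.2 to 2153 in control. Summed NK cell markers were at 275 to 403 FPKM in the combination, 176 to 295 with antiPDL1, 502 to 841 with polyIC and 134 to 303 in control. In polyIC against control, 5 of 8 NK cell markers and 4 of 8 neutrophil markers rose. So did 4 of 13 T cell markers and 3 of 8 monocyte markers, where 2.47% of all genes were called higher. Summed Kupffer cell markers were at 1683 to 2975 FPKM in the combination, 3619 to 12201 with antiPDL1, 4675 to 5134 with polyIC and 4290.3 to 18794 in control. The lowest control value is again that of replicate 2. No marker of these lists was at 0 in any group. Ptprc itself rose by 0.90 on the log2 scale in the combination against control. Both antiPDL1 libraries with high GTPase levels, replicates 0 and 1, had higher monocyte sums than any polyIC or control library. Their T cell sums were 2294 and 1085 FPKM. The part of cell composition in the GTPase changes was not tested.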

How the data were processed

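RNA of CD45-captured liver cells was sequenced in 12 libraries from stranded mRNA kits, 3 for each of 4 groups. The deposited table holds an FPKM value per gene and library, produced by the authors with Cuffdiff and the mm9 genome, per the submitters' processing notes. That unit is read from the values. Which Cuffdiff version, aligner, annotation and scaling were used is not given in the sources used here, and both annotation and scaling can change levels. Promoter sequences come from RefSeq on GRCm38.p6, another build.

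Tests used limma 3.58.1 in R 4.3.3 on log2(FPKM + 1): limma-trend, two-sided, 1 fit of 12 libraries, group as the only term, Benjamini-Hochberg adjustment and a threshold of 0.05. Genes needed at least 1 FPKM in at least 3 libraries. A further 10 genes, at 0 in a whole group while all libraries of another group had at least 5 FPKM, were left out as failed estimates, which left 11990. The fits were tested on simulated data. Relative depth came from the step between low values, in 60 of 66 library pairs. Tables were prepared with Python 3.11.15, pandas 2.3.3 and numpy 2.4.6.

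The genes and lists were chosen with earlier results of these data known. Named are all 10 genes, up to 3 called genes of each list by size, 6 fixed pathway genes, and the 10 genes most like the mean (small RNAs, receptor segments and predicted genes aside). Of these, 1 gene is not reported here. Alternatives changed the pseudocount (0.1), the filter (none, or a mean of at least 5 FPKM), the scaling (quantile, median-of-ratios, common total without small RNA genes), the fit (groups compared only, replicate block, quality weights) or the libraries (each left out). Keeping the failed estimates and leaving out both replicates 2 of control and antiPDL1 were added after the data were seen.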

Additional observations from a re-analysis of the deposited data

How the results depend on the processing

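Counts of the 10 GTPase genes called depended on single libraries. With single libraries left out, the counts ran from 4 to 10 for the combination against control and 0 to 10 for antiPDL1 against control. Of all genes, 5.17% to 19.9% and 0% to 11.9% were called higher in these runs. The counts were 0 to 1 for polyIC against control, with 0.267% to 5.72% of all genes called higher. They were 0 to 6 for the combination against polyIC (0% to 1.13% of all genes) and 0 to 8 for antiPDL1 against polyIC (0.00834% to 1.74%). The combination against antiPDL1, the interaction and the Ifng term within groups stayed at 0 in every alternative run. Array quality weights gave 10 for antiPDL1 against control, 2 for polyIC against control, 10 for the combination against polyIC and 6 for antiPDL1 against polyIC, where 10.2%, 13.5%, 15.6% and 2.59% of all genes were called higher. Leaving out control and antiPDL1 replicates 2 together gave 10, 1, 7 and 9 in the same order, with 14.4%, 10.1%, 2.11% and 4.24% of all genes called higher. Fits of only the groups compared gave 1 for polyIC against control (3.02% of all genes called higher) and 9 for the combination against polyIC (2.66%). Quantile normalization gave 1 for polyIC against control (4.07%). Pseudocount, filter, failed estimates and median-of-ratios scaling kept every count within 1.5 times. Rescaling to a common total without small RNA genes shifted the median of all genes by -0.13 in the combination, -0.18 in antiPDL1 and -0.15 in polyIC, each against control, and by 0.17 in the interaction. With a replicate block, replicate number is a term of the fit. It called 10 genes in the combination against control, with 15.6% of all genes called higher, and 0 in each other comparison. Over all genes, deviations of same-numbered libraries had r of -0.28 to 0.31 (median 0.028, over 0.1 in 4 of 18 pairs), against 3 of 36 pairs over 0.1 with different numbers, so no pairing was assumed. The summed level of the 10 genes was lowest in replicate 2 in 4 of 4 groups. The median-of-ratios scaling factor of the whole library was also lowest in replicate 2 of each group. It was 0.943 in the combination, 0.885 with antiPDL1, 0.901 with polyIC and 0.940 in control. The sizes differed with antiPDL1, where the factor was 1.05, 1.08 and 0.885 in replicates 0, 1 and 2. The summed level of the 10 genes was 1120, 1635 and 425 FPKM in these libraries. A link between factor and summed level was not tested.

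Log2 changes of single genes turned sign only where they were not called. In polyIC against control, Gbp3 ran from -0.22 to 0.33 and Irgm2 from -0.11 to 0.14 with 1 library out. Gbp3 was -0.070 and Irgm2 -0.14 with the common total, Irgm2 -0.00011 with quantile normalization, Gbp3 -0.15 with quality weights, and Gbp3 -0.22 and Irgm2 -0.10 without both replicates 2. In the combination against antiPDL1 the ranges with 1 library out were -0.33 to 0.92 for Gbp2, -0.41 to 0.51 for Gbp3, -0.35 to 0.68 for Gbp4, -0.44 to 0.73 for Gbp5, -0.072 to 0.73 for Gbp6, -0.14 to 0.58 for Gbp7, -0.37 to 0.48 for Irgm1, -0.36 to 0.15 for Irgm2 and -0.17 to 0.73 for Igtp. Without both replicates 2 the value was -0.33 for Gbp2, -0.41 for Gbp3, -0.35 for Gbp4, -0.44 for Gbp5, -0.072 for Gbp6, -0.14 for Gbp7, -0.37 for Irgm1 and -0.17 for Igtp. With quality weights it was -0.22 for Gbp3, -0.038 for Gbp4, -0.21 for Gbp5, -0.27 for Irgm1 and -0.041 for Igtp. In antiPDL1 against polyIC Gbp6 ran from -0.054 to 0.75. In the interaction the ranges with 1 library out were -0.66 to 0.59 for Gbp2, -0.49 to 0.43 for Gbp3, -1.004 to 0.031 for Gbp4, -0.72 to 0.45 for Gbp5, -0.70 to 0.019 for Gbp7, -0.55 to 0.30 for Irgm1, -0.38 to 0.14 for Irgm2, -0.51 to 0.39 for Igtp and -0.28 to 0.55 for Iigp1. Gbp2 was -0.19 with quality weights and -0.52 without both replicates 2. With the common total Gbp3 was 0.15, Gbp5 0.14, Irgm1 0.058, Irgm2 0.026 and Igtp 0.15. Apart from the libraries left out, the cause of these changes was not tested. Counts of reads were not used here, so counting error at low levels such as those of Gm4841 could not be set beside the spread.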

Other observations

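Partners of the GTPases in cell death and vacuole control were listed as well. Of 7 inflammasome genes, 3 rose and 0 fell in the combination against control, at a median log2 change of 0.86 against 0.05 over all genes, of which 13.1% were called higher. Casp4, the mouse receptor of cytosolic lipopolysaccharide that GBPs serve, had 43.2, 67.7 and 66.1 FPKM in the combination and 14.5, 24.1 and 14.8 FPKM in control. It rose by 1.68 ± 0.37 (SE, limma adjusted p = 0.00838), and the groups did not overlap. The adaptor gene Pycard rose by 1.42 ± 0.32 and Casp1, the protease that matures interleukin 1 beta, by 0.98 ± 0.27. With antiPDL1 against control 0 of the 7 were called, at a median of 0.71. With polyIC 0 were called, at a median of 0.36. Of all genes, 0% were called higher with antiPDL1 and 2.47% with polyIC. Casp4 repeated the low antiPDL1 library, at 56.0, 48.4 and 18.3 FPKM in antiPDL1 replicates 0, 1 and 2.

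Of 11 tested autophagy genes, whose conjugation machinery places IRG proteins on vacuoles in mouse cells, 0 rose and 1 fell in the combination against control, at a median of -0.004. Of all genes 13.1% were called higher and 16.3% lower, so the share of falls in this list was not above that of all genes. Map1lc3a, which encodes a form of LC3, had 8.99, 6.95 and 5.62 FPKM in the combination and 26.9, 31.3 and 11.8 FPKM in control. It fell by 1.48 ± 0.31 (limma adjusted p = 0.00671), with 1 control library well under the other two. With antiPDL1 and with polyIC, each against control, 0 of the 11 were called, where 0% and 2.47% of all genes were called higher.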
